A study of Mus musculus with 21 samples.

Results

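Mitosis and spindle genes were followed through 4 groups of mouse liver samples: livers and liver tumours of Trp53 knockout (KO) mice, liver tumours induced by the carcinogen N-nitrosodiethylamine (DEN), and wild-type (WT) livers. The set holds 45 genes, taken by name from the non-control probes of the arrays, and they carry 63 of the 39429 such probes (a probe is a stretch of 60 bases printed on the array). Of these, 58 probes in 44 genes stood well above background on 4 or more of the 21 arrays and were tested, among 30397 tested probes in all. The array names 30222 genes or transcripts. Ttk, the checkpoint kinase also called Mps1, was the member without a tested probe, and 12 members had more than 1 tested probe. A member that has several is counted below by the probe with the highest mean signal, and its other probes are given where they differ.

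All mice were C57BL/6J. The KO mice carried a Trp53 knockout and were not treated, and their tumours are labelled as hepatocellular or cholangiocellular carcinoma (HCC/CCC) without saying which of the tumours was which. The DEN mice were Trp53 wild type, received 10 µg of DEN per g of body weight intraperitoneally on day 15, and their tumours are labelled hepatocellular carcinoma. The WT livers came from untreated Trp53 wild-type mice, so that no liver of a DEN-treated mouse enters a comparison, and the DEN tumours differ from the WT livers in treatment as well as in tissue. The sources used here do not give the cells in which Trp53 was lost, nor the sex or age of the mice. There were 4 WT livers, 4 KO livers, 7 DEN tumours of 5 mice and 6 KO tumours of 5 mice. Tumours of 1 mouse were averaged, so n counts mice. Mouse numbers here are names only, and which tumours shared a mouse was read from the sample titles. The p-values measure the spread between these mice.

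During mitosis, duplicated chromosomes attach through their kinetochores to spindle microtubules, and a checkpoint holds back their separation until each is attached. Most of the proteins that do this work are made only shortly before division, under the control of the FOXM1 factor and of the DREAM and MuvB complexes, which also carry repression of these genes downstream of p53. Hepatocytes of the adult liver rarely divide, and liver tumours are known for high levels of these transcripts.

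Levels are log2 processed intensities minus the 75th percentile of the same array, so that a level of 0 is the 75th percentile of that array, and they cannot be compared between probes. Changes are log2 differences between group means ± their standard error (SE) from a single limma fit of all 30397 probes, called at a Benjamini-Hochberg adjusted p under 0.05. The arrays showed a 75th percentile intensity of 476 to 4258 units and 51.0% to 82.3% of probes well above background, and arrays of 1 group correlated at 0.931 to 0.987. The labels were checked on Trp53 itself, whose level was -3.57 ± 0.26 (SD, n = 4) in WT livers, -5.57 ± 0.75 (n = 4) in KO livers, -2.65 ± 0.11 (n = 5) in DEN tumours and -4.71 ± 0.47 (n = 5) in KO tumours. No KO mouse reached the level of any WT or DEN mouse. In whole tissue, more cells in division and more RNA per dividing cell cannot be told apart.

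Before the values, the promoters of the members were read from a RefSeq table of the GRCm38.p6 build, which gives 250 bases before and 50 bases after each transcription start and held 38 of the 45 members. The search, on both strands, was for the letters TTTGAA, a form of the cell cycle homology element to which MuvB binds, and for CCAAT, the motif of the NF-Y factor. TTTGAA was present in 29 of 38 members (76.3%), against 20.2% of the 27025 genes of the table. It lay within 50 bases of the start in 27 of 38 members (71.1%), against 5.72% of all genes. CCAAT was present in 27 of 38 (71.1%, against 41.1%), and both motifs in 24 of 38 (63.2%, against 7.97%). The related form TTTAAA was present in 21.1% of the members and 14.9% of all genes, and any of the E2F cores TTCGCGC, TTTCCCGC and TTTGGCGC in 2.63% and 3.51%. Bub3, Cenpf and Spc25, which were not called in KO tumours, each held both TTTGAA and CCAAT. The stretches below are the 150 bases before the start, 5′ to 3′ on the strand of the gene, with TTTGAA and CCAAT in capitals on either strand (TTCAAA and ATTGG on the other). They show Cdc20, Espl1, Top2a and Ube2c, which rose in KO tumours, then Bub3, which did not pass the test there, and Pttg1, whose stretch holds neither motif.
Cdc20, chr4:118437344-118437493, minus strand: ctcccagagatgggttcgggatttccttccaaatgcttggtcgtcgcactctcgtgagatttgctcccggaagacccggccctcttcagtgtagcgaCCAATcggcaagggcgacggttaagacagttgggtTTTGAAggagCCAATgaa
Espl1, chr15:102296143-102296292, plus strand: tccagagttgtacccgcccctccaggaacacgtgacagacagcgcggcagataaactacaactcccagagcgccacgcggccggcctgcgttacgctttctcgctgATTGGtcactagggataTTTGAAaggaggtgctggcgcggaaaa
Top2a, chr11:99024190-99024339, minus strand: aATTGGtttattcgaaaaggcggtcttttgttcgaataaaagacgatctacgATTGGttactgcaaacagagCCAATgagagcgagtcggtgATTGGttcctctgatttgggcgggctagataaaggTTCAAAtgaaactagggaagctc
Ube2c, chr2:164769779-164769928, plus strand: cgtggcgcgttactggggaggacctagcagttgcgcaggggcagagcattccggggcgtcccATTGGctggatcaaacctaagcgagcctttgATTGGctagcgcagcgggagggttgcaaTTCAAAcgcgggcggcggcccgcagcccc
Bub3, chr7:131560220-131560369, plus strand: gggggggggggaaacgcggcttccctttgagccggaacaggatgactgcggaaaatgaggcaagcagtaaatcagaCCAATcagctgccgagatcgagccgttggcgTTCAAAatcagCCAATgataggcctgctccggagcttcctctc
Pttg1, chr11:43425982-43426131, minus strand: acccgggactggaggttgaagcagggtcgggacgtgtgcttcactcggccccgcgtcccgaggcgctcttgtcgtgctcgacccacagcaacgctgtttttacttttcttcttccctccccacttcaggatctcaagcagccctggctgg
A match is a run of letters in these windows and was not tested for binding. The Cdc20, Espl1, Top2a and Ube2c windows each hold 1 TTTGAA and at least 1 CCAAT within these 150 bases.

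In KO tumours, most of the mitotic machinery was far above its level in KO livers. Of the 44 members tested, 38 were higher, 2 were lower (Spc24 and Tpx2) and 4 were not called (Aurkb, Bub3, Cenpf and Spc25). Over all tested probes, 21.5% were higher and 28.9% lower in the same comparison. The median change of the 44 was 3.57, against -0.20 over all tested probes. In 37 members every KO tumour mouse lay above every KO liver mouse, which was so for 17.6% of all probes, and in Spc24 and Tpx2 every tumour mouse lay below, as for 24.4% of all probes. Because 19 members passed the signal minimum only through tumour arrays, which favours those that differ, the 22 members above background on all 21 arrays are given apart: 19 were higher and 1 lower, with a median of 3.40. The shares of probes given here are over all tested probes. None was taken over probes above background on all 21 arrays, so the counts of these 22 members have no like background. The plot of all members by mouse shows the KO tumours as a block of high values.

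**Figure D1:**
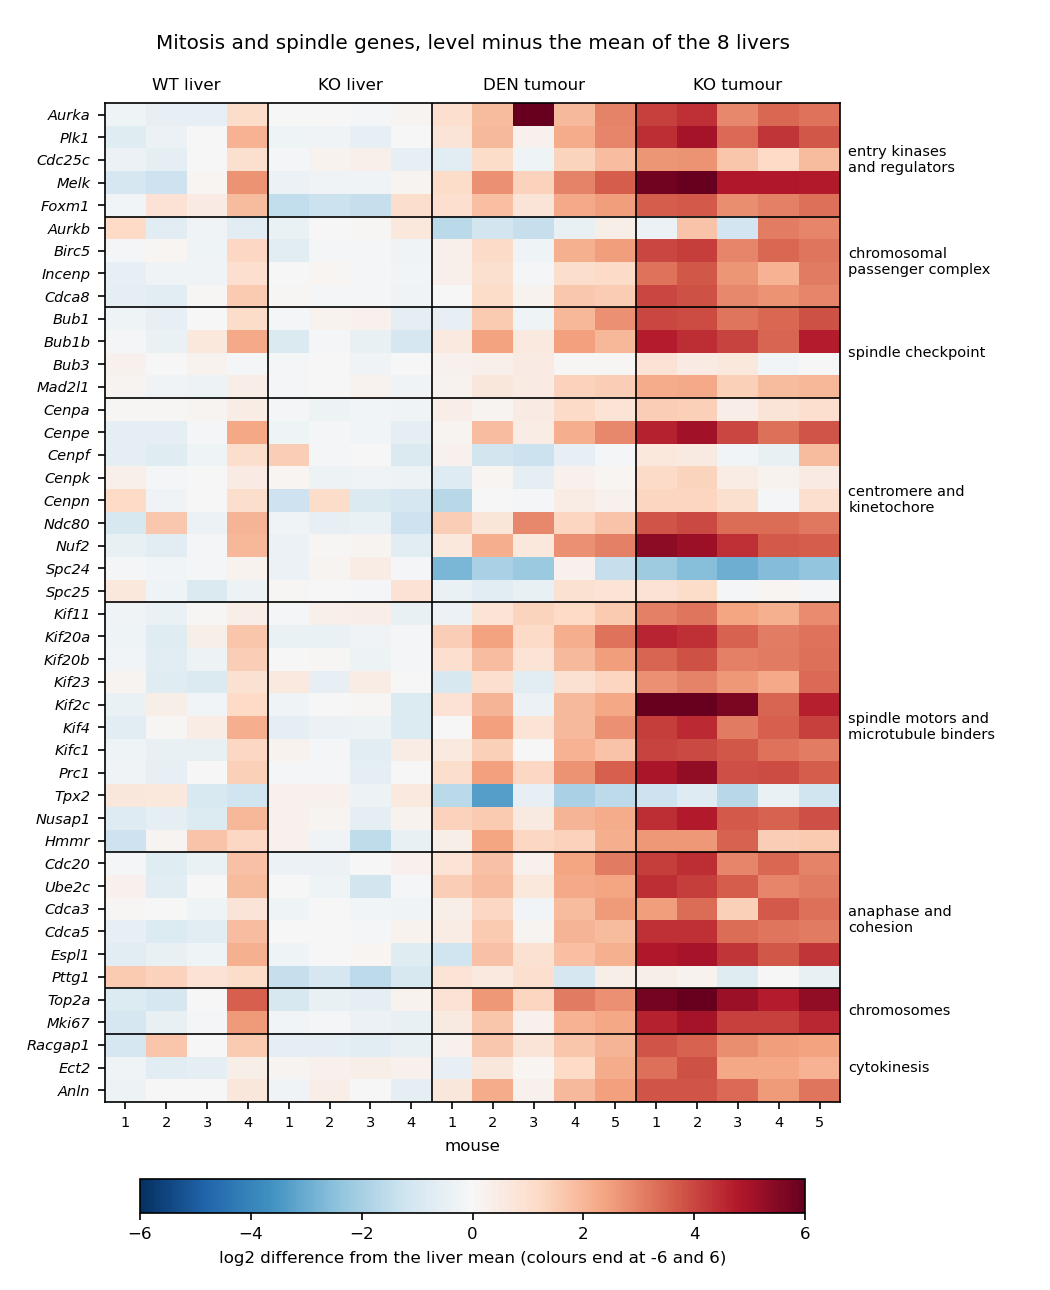
Level of each of the 44 tested members (rows, by role) in each of the 18 mice (columns), as the log2 difference from the mean of the 8 livers, red above and blue below. All 5 KO tumour mice are red for most members, DEN tumour mice 2, 4 and 5 are paler red, DEN mice 1 and 3 are near the livers, and WT liver mouse 4 is redder than the other 7 livers. Aurka in DEN mouse 3, at 8.21, lies past the end of the colour scale.

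The kinases and regulators of mitotic entry all rose in KO tumours. Plk1, the polo-like kinase that drives entry and spindle assembly, had levels of 1.17, 1.75, 0.13, 1.03 and 0.50 in the 5 KO tumour mice and -3.53, -3.44, -3.74 and -3.20 in the 4 KO livers. The groups stood far apart, and the change was 4.39 ± 0.56 (adjusted p = 7.9e-06). Aurka, the Aurora kinase of the spindle poles, rose by 3.58 ± 1.0 (adjusted p = 0.0067), from a KO liver range of -2.56 to -2.35 to a KO tumour range of 0.39 to 1.88. Foxm1, the factor that switches on late cell cycle genes, had -1.49, -1.46, -2.35, -2.13 and -1.84 in KO tumours and -6.59, -6.44, -6.49 and -4.09 in KO livers, a change of 4.05 ± 0.52 (adjusted p = 7.9e-06). The probe was well above background on only 1 of 4 KO liver arrays, so the size of this change is uncertain. KO liver mouse 4 was the exception among the livers for this gene. The second Foxm1 probe, above background on 4 of 21 arrays and on no liver array, was not called (adjusted p = 0.14). Melk, a kinase tied to proliferation, and Cdc25c, the phosphatase that activates the CDK1 kinase, were not well above background on any KO liver array, so only bounds hold for them. Melk was at least 15.2-fold higher in KO tumours (adjusted p = 5.6e-06). Here the KO tumour mean is set against the lowest signal that counted as well above background, or the signal of the probe where that was higher. Cdc25c was called higher (adjusted p = 0.002), but its bound lies under 1-fold and no size is given.

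Of the chromosomal passenger complex, which corrects faulty attachments and guides cytokinesis, 3 of 4 members rose. Incenp, its scaffold, rose by 3.0 ± 0.36 (adjusted p = 3.6e-06), with 2.85, 3.33, 2.28, 1.70 and 2.75 in KO tumours against -0.36, -0.26, -0.48 and -0.57 in KO livers. Its second probe gave 2.75 ± 0.32. Birc5 (survivin) rose by 3.80 ± 0.49 (adjusted p = 7.4e-06) and its other 2 tested probes, not above background on any KO liver array, were also called higher. Cdca8 (borealin) rose by 3.36 ± 0.45 (adjusted p = 1.3e-05). Aurkb, the kinase of the complex, was not called: its 5 KO tumour mice spread over -7.11, -5.05, -7.91, -3.66 and -3.80, and no liver array had it well above background. KO tumour mice 2, 4 and 5 were above all KO livers (-7.14 to -6.10), and mice 1 and 3 were not.

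Of the checkpoint members tested, 3 of 4 rose. Bub1b (BubR1), part of the complex that holds back anaphase, was at least 7.46-fold higher (adjusted p = 1.3e-06), with -1.39, -1.65, -2.02, -2.60 and -1.36 in KO tumours and -6.92, -6.14, -6.53 and -7.06 in KO livers. Bub1, its kinase partner, was at least 3.41-fold higher (adjusted p = 2.7e-05). Mad2l1 (Mad2) rose by 1.99 ± 0.26 (adjusted p = 1e-05). Bub3, which carries both Bub proteins to the kinetochore, lay well above background on every array of every group and changed by 0.46 ± 0.20 (adjusted p = 0.073). Its 5 KO tumour mice (2.31, 1.91, 2.03, 1.24 and 1.41) overlapped the KO livers (1.28, 1.38, 1.20 and 1.43). Ttk was well above background on 3 of 13 tumour arrays and no liver array.

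Centromere and kinetochore members were the least uniform group, with 6 higher, 1 lower and 2 not called of 9. The Ndc80 complex, which makes the main contact with microtubules, has 4 subunits, and its readings split. Ndc80 and Nuf2, which form the microtubule-binding end, were at least 3.98-fold and at least 5-fold higher (adjusted p = 8.7e-06 and 8e-06). Spc25 changed by 0.19 ± 0.39 (adjusted p = 0.71), with 2.27, 2.49, 1.34, 1.53 and 1.29 in KO tumours against 1.46, 1.37, 1.29 and 2.26 in KO livers. Spc24 fell by 2.57 ± 0.42 (adjusted p = 8.4e-05), from 0.06, 0.62, 0.86 and 0.33 in KO livers to -1.71, -2.14, -2.49, -2.19 and -1.96 in KO tumours. All KO tumour mice were below all livers for Spc24. It was read by a single probe, chr9:21561562-21561621 of build mm9 on the minus strand, whose first 30 bases are shown because its direction went against the other members.
Spc24: tatcaccaaattagtaaaatacagtgggat

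Cenpe, a kinetochore motor, rose by 4.43 ± 0.61 (adjusted p = 1.5e-05). Cenpa, the histone variant that marks the centromere, rose by 1.21 ± 0.23 (adjusted p = 0.00037), and Cenpk, a subunit of the inner kinetochore network, by 0.90 ± 0.27 (adjusted p = 0.011). Cenpn of the same network was at least 1.06-fold higher (adjusted p = 0.031), but KO tumour mice 3, 4 and 5 (-4.52, -5.59 and -4.51) lay below KO liver mouse 2 at -4.37. Cenpf was not well above background on any liver array and was not called.

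Among spindle motors and microtubule binders, 10 of 11 rose. Kif2c, which takes microtubules apart at their ends, was at least 13.7-fold higher (adjusted p = 2.5e-06), with 0.61, 0.28, -0.77, -2.96 and -1.79 in KO tumours against -6.67, -6.47, -6.40 and -7.25 in KO livers. Its second probe had the same order of mice at the top, -0.37 and -0.38 in mice 1 and 2 against -1.73, -2.85 and -1.81. Prc1, which bundles the central spindle, rose by 4.5 ± 0.51 (adjusted p = 2.3e-06), with a KO tumour range of 0.34 to 2.03 and a KO liver range of -3.81 to -3.23. Kif11 (Eg5), which pushes the spindle poles apart, was at least 1.31-fold higher (adjusted p = 7.7e-06). Kif4 and Kif23 were at least 4.88-fold and 4.72-fold higher (adjusted p = 6.1e-06 and 1.9e-04). Kif20a, Kif20b, Kifc1, Nusap1 and Hmmr rose by 2.84 (Hmmr) to 4.03 (Kif20a and Nusap1). The sizes are uncertain for Kif20b, Nusap1 and Kifc1, which were well above background on 2, 2 and 3 of 8 liver arrays. Tpx2, the activator of Aurka on the spindle, was counted lower but its probes gave opposite calls, as described further on.

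The 6 members grouped here under anaphase and cohesion all rose. Cdc20, which activates the anaphase-promoting complex, had 2.54, 2.81, 1.31, 1.82 and 1.34 in KO tumours and -1.97, -2.0, -1.67 and -1.39 in KO livers, a change of 3.72 ± 0.56 (adjusted p = 3.8e-05). Ube2c, the ubiquitin carrier of that complex, rose by 4.03 ± 0.47 (adjusted p = 3.2e-06), and Cdca5 (sororin), which protects cohesion, by 3.67 ± 0.51 (adjusted p = 1.7e-05). Espl1 (separase), the protease that cuts cohesin, was at least 6.6-fold higher (adjusted p = 1.3e-05). Pttg1 (securin), which inhibits separase, rose by 1.12 ± 0.34 (adjusted p = 0.012), to a level still below that of WT livers. Cdca3 rose by 3.0 ± 0.50.

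Top2a, the topoisomerase that untangles chromosomes, was at least 21.6-fold higher (adjusted p = 6.2e-06), the highest bound in the set, with 0.09, 0.45, -0.54, -0.97 and -0.37 in KO tumours and -6.65, -6.10, -6.23 and -5.46 in KO livers. Mki67, the proliferation marker on the surface of mitotic chromosomes, was well above background on every array. It had 2.59, 2.94, 2.04, 2.04 and 2.46 in KO tumours against -2.23, -2.11, -2.42 and -2.50 in KO livers, a 26.5-fold difference, and its second probe rose by 4.52 ± 0.65. The 3 cytokinesis members Racgap1, Anln and Ect2, which set up and fill the contractile ring, rose by 3.57 ± 0.50, 3.44 ± 0.42 and 2.50 ± 0.46. The plot of 8 members by mouse shows these gaps, and Spc24 in the other direction.

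**Figure D2:**
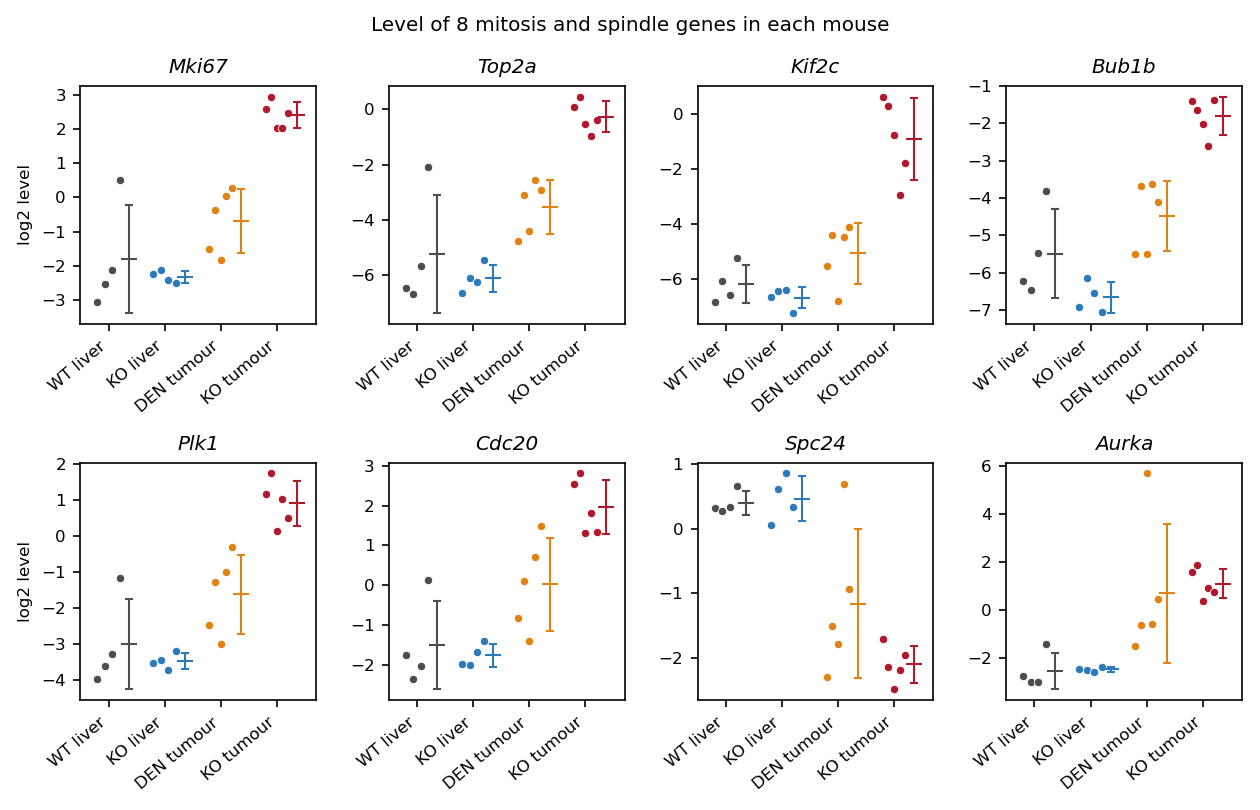
Log2 level (0 is the array's 75th percentile) of 8 members in each mouse of the 4 groups, each dot a mouse, with the mean ± SD beside it (n = 4, 4, 5 and 5). Mki67, Top2a, Kif2c, Bub1b, Plk1 and Cdc20 are highest in the KO tumours, Spc24 is lowest there, and Aurka has a single DEN mouse at 5.71.

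Where members had only a bound in KO livers (12 with a fold bound, and Cdc25c, Aurkb and Cenpf without), setting them to that bound or to 0 gave a median change of 2.95 in place of 3.57. With the slide as a random block, 33 members were higher and 1 was lower. After normexp background correction with the 75th percentile 25 were higher and 2 lower with a median of 1.72. The share of all probes higher was 11.7% with the slide block and 8.13% after normexp, where their median was -0.58. Marker genes of other cell types moved in the same comparison: all 10 hepatocyte markers were lower (summed level 312 to 759 in the tumours and 2380 to 2778 in the livers), 7 of 8 bile duct markers were higher (53.8 to 257 against 5.05 to 6.98) and 6 of 8 stellate and matrix markers were higher (81.6 to 386 against 45 to 52.8). B and plasma cell markers summed to between 1.25 and 70.4 in the tumours and between 1.17 and 1.52 in the livers. Summed levels are unlogged and can be dominated by the brightest markers, so a sum need not follow most markers of its list. The part of these cells in the result was not tested.

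In DEN tumours the same genes were only partly above the WT livers. Of 44 members, 8 were higher (Aurka, Melk, Mad2l1, Kif20a, Kif20b, Prc1, Nusap1 and Anln), 2 were lower (Spc24 and Tpx2) and 34 were not called. The background was 10.3% of probes higher and 10.7% lower. The median change was 1.01, against 0.04 over all tested probes, and in none of the 44 did the mice of both groups separate, which they did for 10.7% of all probes upwards and 12.8% downwards. At an unadjusted p under 0.05, 17 members were higher and 3 lower. Of the 22 members above background on all arrays, 5 were higher and 1 lower, with a median of 0.96. For neither of these counts was a share of all probes taken under the same rule, so they have no background. Marker sums moved too: bile duct markers summed to between 16.8 and 46.6 in the tumours and between 1.77 and 3.48 in the livers (3 of 8 higher, 1 lower), and erythroid markers to between 146 and 517 against between 32.9 and 81 (2 of 5 higher, 1 lower). Of 6 macrophage markers 2 were higher. Their part was not tested.

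This comparison turned on WT liver mouse 4. For Mki67, the WT livers had -3.04, -2.52, -2.12 and 0.51, with mouse 4 at the last value, and the DEN tumours -1.50, -0.38, -1.82, 0.04 and 0.27. Top2a was at -6.47, -6.67, -5.67 and -2.09 in WT livers and at -4.77, -3.09, -4.40, -2.55 and -2.93 in DEN tumours. In both genes WT mouse 4 lay above all 5 DEN mice. Against the other 3 WT livers, mouse 4 was higher by a median of 1.45 over the 44 members and by -0.04 over all tested probes. It was the highest WT liver in 36 of 44 members (81.8%), against 26.9% of all probes, and more than 2-fold above the mean of the other 3 in 30 members (68.2%), against 9.58% of all probes.

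Without WT liver mouse 4, 21 members were higher in DEN tumours and 2 lower, with a median of 1.34, against 9.55% of probes higher and 9.37% lower. In 18 members all DEN mice then lay above the 3 WT livers, which was so for 13.7% of all probes. WT liver mouse 4 was set apart after its high values in these members were seen. Leaving out the liver that was highest in most members favours higher counts. Mki67 (1.88 ± 0.42, adjusted p = 0.0054) and Plk1 (2.01 ± 0.50, adjusted p = 0.011) were then called. Top2a was called too (adjusted p = 0.0012). It was well above background on only 1 of all 8 liver arrays, so the size of its change is not given. Leaving out another mouse moved the count of 8 too, to 3 without WT mouse 1, 2 or 3, to 5 without DEN mouse 2, to 4 without DEN mouse 4 or 5, and to 13 without DEN mouse 3. In these fits 7.23% (without WT mouse 2) to 9.44% (without DEN mouse 4) of all probes were higher. WT mouse 4 also had a B and plasma cell marker sum of 30.8, where the other WT livers had 2.15 to 2.68, and its hepatocyte sum of 1994 was within their 1866 to 2289. The part of those cells in its mitotic levels was not tested.

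**Figure D3:**
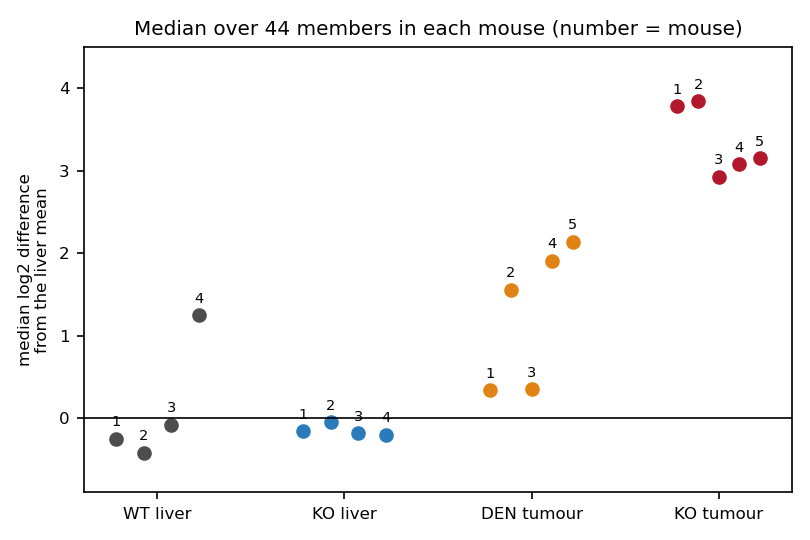
Median over the 44 tested members of the log2 difference from the mean of the 8 livers, a dot per mouse with its number. The KO tumour mice lie at 2.93 to 3.84, the DEN tumour mice at 0.34 to 2.14, the KO livers at -0.20 to -0.05 and the WT livers at -0.42 to -0.08, apart from WT mouse 4 at 1.25.

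Among the members called in DEN tumours, Prc1 rose by 2.02 ± 0.51 (adjusted p = 0.0094), with -2.23, -0.80, -2.03, -0.58 and 0.33 in DEN tumours and -3.46, -3.78, -3.24 and -1.84 in WT livers. WT mouse 4 was above DEN mice 1 and 3. Kif20b (1.56 ± 0.39, adjusted p = 0.0093) and Kif20a (1.84 ± 0.47, adjusted p = 0.01), both motors of the central spindle or of cytokinesis, showed the same overlap. Melk was called higher (adjusted p = 0.028), but it was well above background on only 1 of 8 liver arrays and no size is given. Nusap1, which binds spindle microtubules, rose by 1.59 ± 0.50, Anln by 1.42 ± 0.42 and Mad2l1 by 0.83 ± 0.26. Nusap1 and Kif20b were each well above background on 2 of 8 liver arrays, so the sizes of their changes are uncertain. Aurka was called at 3.24 ± 1.0 (adjusted p = 0.029), and its DEN mice were -1.49, -0.62, 5.71, -0.56 and 0.47. The value of mouse 3, from 1 tumour, was far above every other mouse of the study, KO tumours included, and without it the change was 1.98 and still called. Spc24 fell by 1.56 ± 0.42 (adjusted p = 0.014), with DEN mouse 4 at 0.70, a level of the livers, and the other DEN mice at -2.29 to -0.93.

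The DEN tumours differed among themselves. DEN mice 1 and 3 had member medians of 0.34 and 0.35 above the liver mean, and mice 2, 4 and 5 had 1.56, 1.91 and 2.14. DEN mouse 5 was the highest DEN mouse for 27 of 44 members. In the order of mice 1 to 5, the hepatocyte sums were 2103, 1324, 1900, 1851 and 1838, and the stellate and matrix sums 16.5, 122, 15.3, 41.3 and 41.8, so that the mice with low member medians also had the lowest matrix sums. The T and NK cell sums were 102, 22.3, 81.2, 91.1 and 58.1. The part of these cells was not tested. In DEN mouse 4 the 2 tumours differed, with the second lower by a median of 1.06 over the members and of 0.19 over all probes. In DEN mouse 5 the second was higher by a median of 0.40 over the members. In both mice the tumours were scanned on different days, the second on day 1. Those of KO mouse 5, scanned on 1 day, differed by 0.29.

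No slide held more than 1 group, so that slide and group cannot be told apart in any of the comparisons. All 4 WT livers also shared a scan day that held no other group, so that in comparisons with them neither can the day. With the slide as a random block, or after normexp correction with the 75th percentile, 0 members were called in DEN tumours in either direction. Few probes of any kind were called there, 2.08% with the slide block and 2.31% after normexp.

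Set directly against DEN tumours, the KO tumours were higher in 34 of 44 members and lower in 0, with 10 not called. Over all tested probes 19.1% were higher and 36.4% lower. The median change was 1.94, against -0.31 over all probes, and in 26 members the mice of both groups did not overlap, against 10.3% of all probes in that direction and 20.4% in the other. Of the 22 members above background on all arrays, 16 were higher and 0 lower, with a median of 1.78, and no share was taken over probes filtered in the same way. By the median over the members, the lowest KO tumour mouse (2.93 above the liver mean) was above the highest DEN mouse (2.14).

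The widest gap was that of Kif2c at 4.16 ± 0.62 (adjusted p = 4.6e-05), with DEN tumours at -5.56, -4.43, -6.82, -4.49 and -4.14, all below the lowest KO tumour at -2.96. Espl1 followed at 3.33 ± 0.59 (adjusted p = 0.00019), Top2a at 3.28 ± 0.69 (adjusted p = 0.00082) and Mki67 at 3.09 ± 0.54 (adjusted p = 0.00018). Melk, Bub1b, Cenpe, Nuf2, Bub1 and Plk1 were higher by 2.53 (Plk1) to 2.90 (Melk). All 4 chromosomal passenger members were higher, by 2.07 (Aurkb, whose mice overlapped) to 2.39 (Birc5 and Cdca8). Aurkb was well above background on only 1 of 7 DEN and 4 of 6 KO tumour arrays. Its call was lost without KO tumour mouse 4 and without KO tumour mouse 5. Foxm1 was higher by 1.60 ± 0.49 (adjusted p = 0.011), and by 1.19 ± 0.32 on its second probe. Cdc20 was higher by 1.94 ± 0.53 (adjusted p = 0.0053), Kif11 by 1.80 ± 0.32 and Ndc80 by 1.90 ± 0.50. After normexp correction with the 75th percentile the sign turned for Kif11 (-1.08), Ndc80 (-0.19), Bub1 (-0.43), Aurkb (-1.28) and Cdc25c (-1.42).

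The 10 members not called were Aurka (0.41 ± 0.94), Bub3 (0.13 ± 0.19), Cenpa (0.42 ± 0.22), Cenpf (1.02 ± 0.50), Cenpn (1.11 ± 0.49), Spc24 (-0.94 ± 0.40), Spc25 (0.33 ± 0.37), Tpx2 (0.71 ± 0.46), Hmmr (0.87 ± 0.56) and Pttg1 (-0.47 ± 0.32). For Aurka this rested on DEN mouse 3: without it the change was 1.66 and called, as the other 4 DEN mice lay at -1.49 to 0.47 and the KO tumours at 0.39 to 1.88. With the slide as a random block 20 members were higher, and after normexp correction with the 75th percentile 14 were higher and 4 lower with a median of 0.46. Of all probes, 11.5% were higher with the slide block and 7.17% after normexp, where their median was -0.88. In either direction 35.8% and 53.5% of all probes were called. Both kinds of tumour were present on scan day 1, and on that day alone 32 members were higher and 0 lower, with 20.5% of all probes higher. Beside this, all 10 hepatocyte markers were lower in KO than in DEN tumours (summed level 1324 to 2103 in DEN tumours), and 5 of 6 B and plasma cell markers, 7 of 8 stellate and matrix markers and 6 of 8 bile duct markers were higher. Of the erythroid markers 4 of 5 were lower (3.83 to 46 in KO and 146 to 517 in DEN tumours), and of the endothelial markers 4 of 6. Their part was not tested.

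The difference between the tumour effects, each taken against the livers of its own genotype, was tested as an interaction. It was positive and called in 33 of 44 members and negative in 0, with a median of 2.28, against 12.3% of all probes positive, 17.7% negative and a median of -0.22. Over the 22 members above background on all arrays, 16 were called, with a median of 2.10, and no share was taken over probes filtered in the same way. Mki67, one of the 16, differed by 3.62 ± 0.81 (adjusted p = 0.0036). Of the 33, 12 were not above background on any KO liver array, among them Kif2c, Top2a and Bub1b (adjusted p = 0.0018, 0.0069 and 0.0013), so the sizes and order of their differences were not measured. Aurka (0.35 ± 1.41) and Spc24 (-1.01 ± 0.59) were not called. Without WT liver mouse 4 the count was 28 with a median of 1.99. With the slide as a random block it was 0, and after normexp correction with the 75th percentile it was 6 with a median of 1.20. The shares of all probes positive and called were 10.1%, 1.45% and 2.21% in the same order, and the normexp median of all probes was -0.71. On other probes, Mad2l1 had -0.27 and 0.28 beside 1.16 on the counted probe. Foxm1 was called on its counted probe (3.14) alone, which was well above background on 1 of 4 KO liver arrays. The plot of both changes shows the KO effect above the DEN effect for 42 of the 44.

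**Figure D4:**
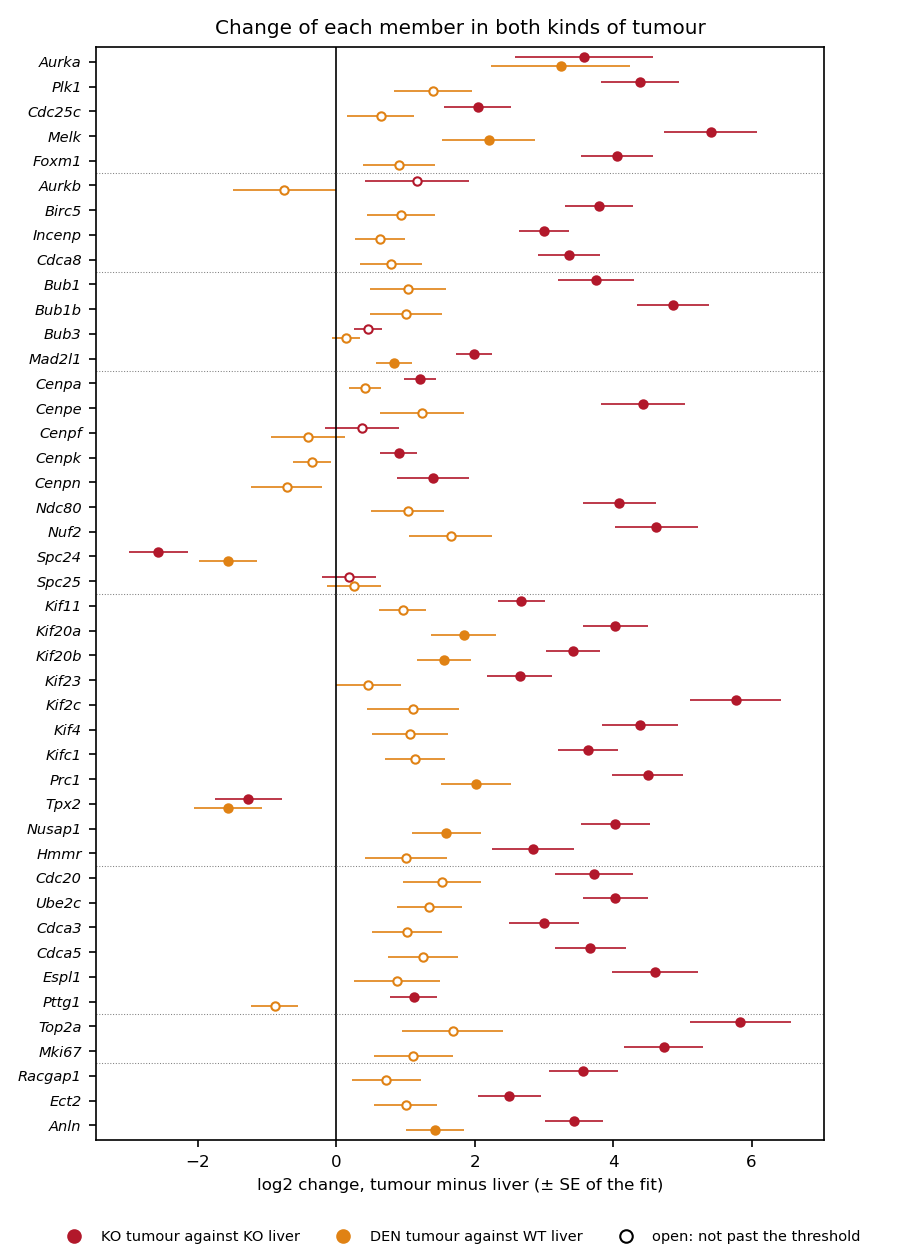
Log2 change ± SE of the 44 tested members by role, KO tumour against KO liver in red and DEN tumour against WT liver in orange, filled where the adjusted p is under 0.05. The red points lie at 0.90 to 5.84 for the 38 members higher in KO tumours, and Spc24 and Tpx2 lie below 0 in both. For the 15 members not well above background in KO livers the red point is a fitted value and only a bound holds.

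Between the livers of untreated KO and WT mice, a single member was called. Of 44 members, 0 were higher and 1 lower in KO than in WT livers by limma, against 1.66% and 6.48% of all probes. At an unadjusted p under 0.05 these counts were 0 and 4 (Bub1b, Foxm1, Pttg1 and Racgap1). The unadjusted share of all probes was not taken, so the 4 cannot be set against a background. The median change was -0.31, against -0.06 over all tested probes. With the 15 members not above background in 1 or both liver groups set to 0, the median was -0.02. Without WT liver mouse 4 it was 0.15 over the 44 fitted changes, against -0.05 over all probes. Again 0 were higher and 1 lower, against 0.724% and 2.95% of all probes. In Pttg1 and Cenpa every KO liver lay below every WT liver, as for 17.1% of all probes, and in 0 members above, as for 10.3%. The other 43 members had changes of -1.55 (Foxm1) to 0.53 (Ect2). The counted Foxm1 probe had -1.55 ± 0.55 (adjusted p = 0.094). It was well above background on 2 of 4 WT and 1 of 4 KO liver arrays, and the second probe on no liver array. Of the 44, 10 were not well above background on any KO liver array while some WT array had them, among them Bub1b, Ndc80, Kif4 and Top2a, and 5 (Aurkb, Bub1, Cdc25c, Cenpf and Kif11) had no probe above background on any liver array. Kif2c is among the 10 through its second probe only, on 1 WT array.

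The member called lower was Pttg1, and both of its probes were called. On the counted probe the WT livers had 3.57, 3.36, 2.86 and 3.1 and the KO livers 0.62, 0.96, 0.40 and 1.01, a change of -2.48 ± 0.36 (adjusted p = 0.00077). All KO livers were below all WT livers, by 5.57-fold in the mean. On the second probe the WT livers had -4.72, -3.73, -3.20 and -2.49 and the KO livers -6.03, -4.92, -6.37 and -5.69 (adjusted p = 0.01). This probe was well above background on 3 of 4 WT and 0 of 4 KO liver arrays, so the size of its change is not given. DEN tumours had 2.80, 2.57, 2.98, 0.99 and 2.35 on the counted probe, with mouse 3 at the level of the WT livers and mouse 4 at that of the KO livers, and KO tumours at 2.35, 2.22, 1.26, 1.99 and 1.52. All KO tumours were above all KO livers and below all WT livers. With the slide as a random block its liver change was -2.48 and no longer called. Each liver group lay on a single slide of its own, and that fit called only 0.0822% of all probes, so it cannot decide on Pttg1. The probes lie at chr11:43233801-43233860 and chr11:43234562-43234621 of build mm9 on the minus strand, 1579 and 818 bases into the transcript, and start as follows.
Pttg1, counted probe: ccgcctgtttgttacgatgcagatatttaa
Pttg1, second probe: tcatgggaatctggtaagggagtccgttca

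Probes of 1 gene were compared for the 12 members with more than 1 tested probe, of 15 with more than 1 probe. In KO tumours against KO livers 9 of the 12 had probes of the same sign and call, and in DEN tumours against WT livers 7 of 12. Tpx2 had opposite calls. On its counted probe, 3592 bases into the transcript, the KO tumours were at -3.59, -3.12, -3.99, -2.75 and -3.53 and the KO livers at -2.05, -2.09, -2.63 and -1.74, a change of -1.27 ± 0.49 (adjusted p = 0.039). On its second probe, 2770 bases into the transcript, the KO tumours were at -0.52, -1.30, -1.29, -1.81 and -1.35 and the KO livers at -4.73, -6.52, -1.21 and -6.49, a change of 3.48 ± 0.96 (adjusted p = 0.0064). Both directions were called, although KO liver mouse 3 lay within the tumours on the second probe. Against DEN tumours the second probe was higher in KO tumours (2.45 ± 0.91, adjusted p = 0.031) and the counted one was not called. In DEN tumours against WT livers, where the counted probe was lower, the second had 1.74 ± 0.96 (adjusted p = 0.22). It was well above background on 1 of 4 arrays of each liver group. With the mean of both probes standing for Tpx2, its change in KO tumours was 1.10 and called higher. The probes lie at chr2:152720285-152720344 and chr2:152719476-152719535 of build mm9, plus strand, and are shown because they give the gene opposite directions.
Tpx2, counted probe: gcccagtgcaaaggcatgtatttcaactta
Tpx2, second probe: cgccatgtttggaaacacacctgataacta

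**Figure D5:**
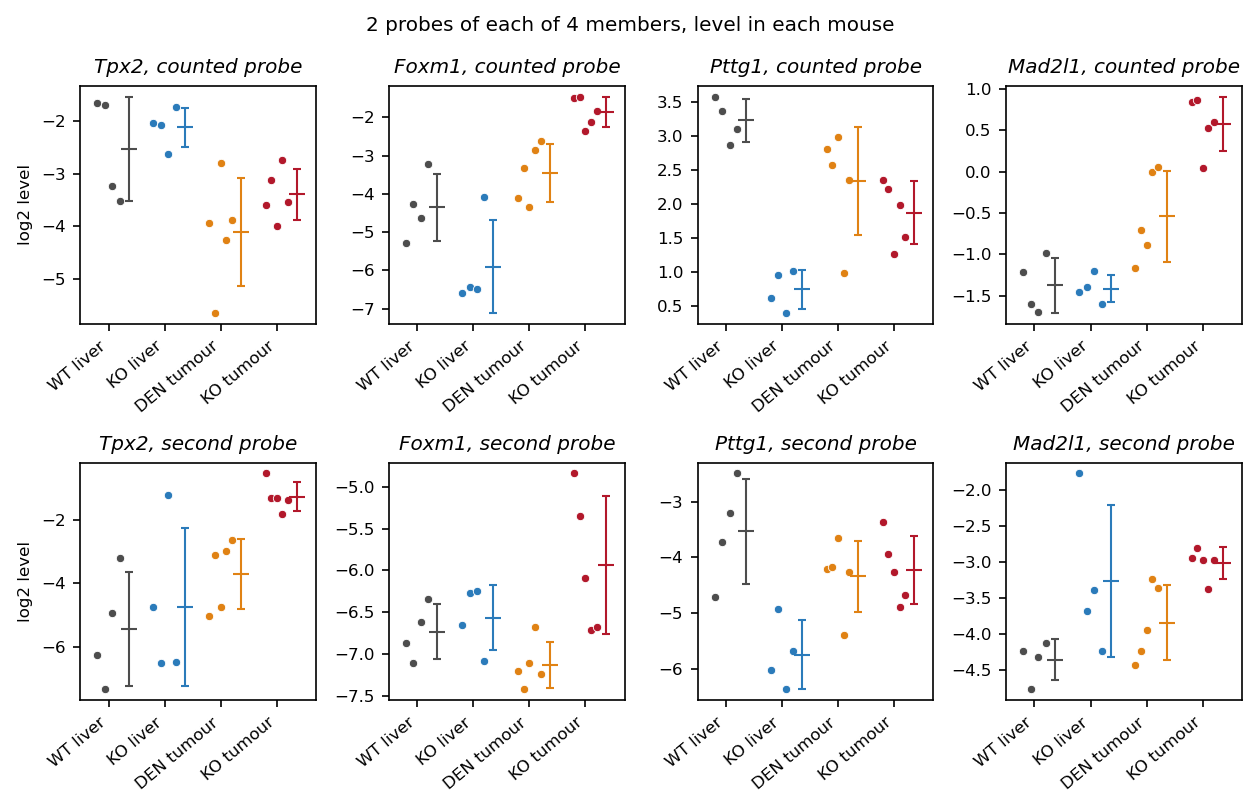
Log2 level in each mouse of the 4 groups for the counted probe (top) and a second probe (bottom) of Tpx2, Foxm1, Pttg1 and Mad2l1, each dot a mouse, with the mean ± SD beside it. The Tpx2 probes move in opposite directions in tumours, the Pttg1 probes are both lowest in KO livers, and the second probes of Foxm1 and Mad2l1 change less than the counted ones.

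Mad2l1 had 3 tested probes, which changed by 1.99, 0.25 and 1.26 in KO tumours against KO livers, the first and the last of them called. On the middle probe KO liver mouse 1 stood at -1.77, above the other KO livers (-4.23 to -3.39) and all tumours. Against DEN tumours the 3 probes gave 1.12, 0.82 and -0.03, the first one called. Incenp and Mad2l1 (-0.30 to 1.09) in KO against WT livers, Pttg1 in KO against DEN tumours and Foxm1 in DEN tumours against WT livers had probes of opposite sign, none of them called. Birc5 and Ube2c had probes that agreed in sign in each comparison but not in the call for DEN tumours: Birc5 at 0.93, 1.44 and 2.22, the last 2 called, and Ube2c at 1.34 and 1.52, the last one called. The probes of Cdca8, Cenpk, Kif2c, Mki67 and Racgap1 had the same sign and call in all 5 comparisons. Of the 5 probes not tested, 2 were for Nuf2, and the others for Ttk, Kif23 and Ect2. The untested probe of Nuf2 at chr1:171440451-171440510 (mm9) read -1.91 in KO tumour mouse 1 and -8.50 to -6.0 in the other KO tumour mice.

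The KO tumour mice also had an order among themselves. Mice 1 and 2 had member medians of 3.78 and 3.84 above the liver mean, and mice 3, 4 and 5 had 2.93, 3.08 and 3.15. Mouse 2 was the highest KO tumour for 23 members and mouse 1 for 14. Their bile duct marker sums were 181 and 257, against 190, 130 and 53.8, and their hepatocyte sums 312 and 367, against 450, 759 and 397. Mice 4 and 5 were scanned on another day than mice 1 to 3. Without those mice, an alternative chosen after the data were seen, 39 members were higher and 2 lower against KO livers. Of all probes 24.9% were then higher, and 53.6% were called in either direction.

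Other genes of mitosis, from lists that leave out the 45 members, were read for comparison, and 84 of 85 were tested. Against KO livers, 58 of the 84 were higher and 6 lower in KO tumours, where 21.5% of all probes were higher and 28.9% lower. In DEN tumours 20 were higher and 1 lower (10.3% and 10.7% of all probes), and in KO against DEN tumours 58 were higher and 6 lower (19.1% and 36.4%). Those with the smallest adjusted p in KO tumours were the kinases Pkmyt1 (3.39 ± 0.24, adjusted p = 4.1e-08) and Nek2 (3.80 ± 0.29, adjusted p = 5.8e-08) and the kinetochore gene Ska2 (2.34 ± 0.22, adjusted p = 4.5e-07) on the higher side, and the kinetochore genes Pmf1 (-1.85 ± 0.22, adjusted p = 4e-06) and Cenpl (-0.74 ± 0.21, adjusted p = 0.0077) on the lower. In DEN tumours the smallest was that of the microtubule regulator Psrc1 (5.13 ± 0.50, adjusted p = 4.4e-06). Nek2 was lower in KO than in WT livers (-2.31 ± 0.30, adjusted p = 0.00032), as was the motor Kif14 (-1.77 ± 0.42, adjusted p = 0.018).

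By kind, other spindle motors and binders were higher in 15 of 16 in KO tumours, and other cytokinesis genes in 6 of 6. Condensin subunits, which compact chromosomes, were higher in 6 of 8, and other kinetochore genes in 20 of 30 with 4 lower. The anaphase-promoting complex, the ligase that Cdc20 and Ube2c serve, had 2 higher and 2 lower of 13, with a median of -0.04. The MuvB complex and its partners had 3 higher and 1 lower of 10, with a median of 0.01. Kinesins of interphase transport, which share the motor domain with the spindle kinesins, had 8 higher and 5 lower of 20. These last 3 lists are to be read against the same 21.5% higher and 28.9% lower of all probes.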

How the data were processed

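RNA of 21 samples was measured on 1-colour Agilent mouse arrays. The deposited files, written by Feature Extraction 10.7.3.1 per the file headers, give each spot's processed intensity, already background-corrected by the scanner software, with flags for outliers and for signal well above background. Here outlier-flagged spots were removed, log2 intensities were centred on the 75th percentile of each array, spots of a probe and tumours of a mouse were averaged (18 mice), and the 30397 of 39429 probes that stood well above background on 4 or more of 21 arrays were fitted with limma 3.58.1 in R 4.3.3, 4 group means in 1 fit, with Benjamini-Hochberg adjustment over all 30397 (threshold 0.05). The deposited log2 values of the authors were an alternative, as were normexp (offset 50) with quantile or 75th percentile scaling, other filters and probe summaries, single arrays as replicates, mouse, slide and scan day as blocks, and each mouse left out. Script and design were tested on simulated data. Named were a set of regulators chosen by role, the 8 largest changes of each comparison, members with disagreeing probes or no call, and other mitosis genes by smallest adjusted p. The members and lists were chosen with earlier results of these data known. Sequences are from RefSeq (GRCm38.p6), probe positions from the files (mm9), and the 2 builds were not mixed. The number of arrays limits the precision.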

Additional observations from a re-analysis of the deposited data

Results flagged for a closer look

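In 33 of 44 members the change from KO livers to KO tumours was larger than that from untreated WT livers to DEN tumours. This is by limma's test of the difference (adjusted p under 0.05), and none was called smaller. No liver of a DEN-treated mouse was available, so DEN treatment and tumour cannot be told apart in it. Of the 33, 21 were above background on 1 or more KO liver arrays. Their log2 differences began with Mki67 3.62, Cenpe 3.19, Foxm1 3.14, Plk1 2.99, Birc5 2.87, Racgap1 2.85, Ube2c 2.69 and Cdca8 2.57. Next were Kifc1 2.50, Prc1 2.48, Nusap1 2.45, Cdca5 2.42, Incenp 2.37, Cdc20 2.20 and Kif20a 2.19. Last were Pttg1 2.01, Anln 2.01, Cdca3 1.98, Kif20b 1.86, Cenpk 1.25 and Mad2l1 1.16. The sizes are uncertain for Foxm1, above background on 1 of 4 KO liver arrays, and for Nusap1, Kif20b and Kifc1. Those 3 were above background on 2, 2 and 3 of 8 liver arrays. On its other probes Mad2l1 had -0.27 and 0.28. Pttg1 was lower in KO than in WT livers (-2.48), and neither of its probes was called in KO against DEN tumours (-0.47 and 0.11). The other 12 were not above background on any KO liver array, so that their fitted values are given without an order or a size: Bub1 2.71, Bub1b 3.85, Cenpn 2.13, Espl1 3.73, Kif11 1.72, Kif23 2.19, Kif2c 4.66, Kif4 3.32, Melk 3.21, Ndc80 3.06, Nuf2 2.98 and Top2a 4.17. The test uses the WT livers, which were alone on their slide and scan day, and no member passed with the slide as a random block. That block called 3.43% of all probes in either direction.

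A single mouse stood apart from the others of its group in 12 of 176 tests of a gap against the range of the group. Chance gives about 1 in 20, so the count is not far from that rate, and the tests share mice. A gap that is wide for its group can be small in size. In 6 of the 12 tests the mouse was WT liver mouse 4, the highest WT liver for Aurka (-1.40), Spc24 (0.67), Kifc1 (-3.51), Nusap1 (-3.01), Cdca5 (-1.70) and Espl1 (-4.24). DEN tumour mouse 3 was high for Aurka (5.71). KO liver mouse 4 was high for Foxm1 (-4.09), and KO liver mouse 3 low for Nusap1 (-5.55). Cenpn had an isolated mouse in 3 groups, KO liver mouse 2 (-4.37), DEN tumour mouse 1 (-7.17) and KO tumour mouse 4 (-5.59).

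Outside the tested probes, Ttk reached -6.01 in the highest tumour mouse, and an untested Nuf2 probe reached -1.91 in KO tumour mouse 1, where WT liver mouse 2 was the highest liver at -3.08.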

How the results depend on the processing

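The authors' deposited log2 values, the scan-day block and scan day 1 alone left the counts of KO tumours against KO livers and against DEN tumours within 1.5 times of those reported, as did leaving out the KO tumour mice of scan day 3, an alternative chosen after seeing the data. Normexp with the 75th percentile, which moves the median of all probes to -0.58, 0.19, -0.88, -0.46 and -0.71 in KO tumours against KO livers, DEN tumours against WT livers, KO against DEN tumours, KO against WT livers and the difference between the tumour effects, gave 25 higher with a median of 1.72 in the first, 0 and 0 in the second, 14 higher and 4 lower with a median of 0.46 in KO against DEN tumours, 0 lower between livers and 6 higher with a median of 1.20 in the last. It turned the sign of Cdc25c (-0.21) and Cenpn (-0.45) in the first, of Aurkb (-1.28), Bub1 (-0.43), Cdc25c (-1.42), Cenpf (-1.70), Cenpn (-1.42), Kif11 (-1.08) and Ndc80 (-0.19) in KO against DEN tumours and of Cenpn (-0.55) and Kif11 (-0.38) in the difference; the cause was not tested. Normexp with quantile scaling gave medians of 1.72, 0.38, 1.24 and 1.24 in KO tumours against KO livers, DEN tumours against WT livers, KO against DEN tumours and the difference, with 4 higher and 1 lower in DEN tumours. With the slide as a random block, 1 was lower in KO tumours against KO livers, and 0 were higher and 0 lower in DEN tumours. It gave 20 higher in KO against DEN tumours, 0 lower between livers and 0 for the difference. In the order of comparisons given above, the slide block called 27%, 2.08%, 35.8%, 0.0822% and 3.43% of all probes. Normexp with the 75th percentile called 23.1%, 2.31%, 53.5%, 0.543% and 7.04%. DEN tumours gave 16 higher with each array as a replicate, 13 with the mouse as a random block, and 3 higher and 0 lower with only the groups compared. All probes higher were 10.7%, 9.82% and 10.5% in these fits. With the mean of a gene's probes Tpx2 was 1.10 in KO tumours and 0.08 in DEN tumours, leaving 1 lower member in each; the median of probes above background also gave 1 lower in KO tumours. In KO against DEN tumours 1 was lower with each array as a replicate, with the mouse as a block, and among members above background on all arrays of 1 group.

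Leaving out 1 mouse gave 37 to 39 higher and 1 to 2 lower in KO tumours against KO livers (1 without KO liver mouse 1, 2 or 4 or KO tumour mouse 1, 3 or 5) with a median of 3.41 to 3.69. In DEN tumours it gave 3 to 21 higher, 1 to 2 lower and a median of 0.74 to 1.34; the 21 came without WT liver mouse 4, 13 without DEN mouse 3, 5 without DEN mouse 2, 4 without DEN mouse 4 or 5 and 3 without WT mouse 1, 2 or 3, and 1 was lower without DEN mouse 2 or 4 or WT mouse 1 or 2. KO against DEN tumours gave 33 to 36 higher, 0 to 1 lower (1 without DEN mouse 1, 3 or 4) and a median of 1.77 to 2.2. Between livers it gave 0 higher and 1 to 2 lower with a median of -0.44 to 0.15; the second was Foxm1 without KO liver mouse 4 and Racgap1 without WT mouse 1. The difference between the tumour effects gave 28 to 34. No paired analysis was possible because replicate numbers are in accession order and no label ties a tumour to a liver. Signal over background limits the 15 members below background in KO livers, for which a fold is a bound at most.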
